A study of Mus musculus with 2 samples.

Results

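The family of miR-99, with miR-100 and miR-125, was taken as the array probes named miR_99a, miR_99b, miR_100, miR_125a and miR_125b (written below with a hyphen), which gave 5 members among the 255 mouse miRNAs that the array held with 1 probe each. Each member had 1 probe, named for the human miRNA and printed as 4 spots. The same 5 rows of the authors' deposited table and its separate panel entry for miR-125a-5p were read beside them. The cells were C3H10T1/2, a mesenchymal line from mouse embryos whose cells can become fat, bone or cartilage. They were kept over 3 days with BMP7 at 3.3 nM, a secreted bone morphogenetic protein that signals through SMAD proteins, or with vehicle. The total RNA of each group was labelled with Cy3, and put on 1 array per group. The comparison asks how the miRNAs of these cells differ after BMP7. With 1 array per group the difference has no replicate check and no p-value is given. Each error comes from the 4 spots of a probe per array (n = 4), so it holds the unevenness of the printed array but nothing of the variation from culture to culture. The number of arrays limits the precision.

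A miRNA is a short RNA that guides silencing proteins to messenger RNAs, mostly through its seed, bases 2 to 8 from its 5′ end. MiR-125 is the vertebrate counterpart of lin-4 of the worm Caenorhabditis elegans, and in mammals the genes of the miR-99 and miR-100 group, let-7 and miR-125 lie beside each other on several chromosomes. In human cells miR-99 and miR-100 are known to act on mTOR, and miR-100 on the BMP receptor BMPR2. MiR-125b is known to restrain bone cell formation from mouse mesenchymal cells.

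The mature mouse sequences of the 5 members, from RefSeq on GRCm38.p6, are shown because their seeds sort the family and because members that differ by few bases may be read by each other's probes. They are written 5′ to 3′ with the seed in capitals.
miR-99a-5p: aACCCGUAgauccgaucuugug
miR-99b-5p: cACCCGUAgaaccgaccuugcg
miR-100-5p: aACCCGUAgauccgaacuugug
miR-125a-5p: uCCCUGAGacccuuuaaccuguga
miR-125b-5p: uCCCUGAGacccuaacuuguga

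The family therefore holds 2 seeds. MiR-99a, miR-99b and miR-100 share ACCCGUA, and in the RefSeq table of 1679 mature mouse miRNAs no other entry has it. MiR-125a and miR-125b share CCCUGAG, which 5 entries have, the others being miR-351-5p, miR-6367 and miR-6394. MiR-99a and miR-100 differ at 1 of 22 bases, position 16 from the 5′ end, and miR-99b differs from each of them at 4 bases. MiR-125a and miR-125b are 24 and 22 bases long, and 3 single-base edits separate them. A probe was not shown to tell such pairs apart, and the probes' own sequences were not used here.

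In GRCm38.p6 the mature miR-99a lies at chr16:77598940-77598961 on the plus strand, next to a let-7c gene and a miR-125b gene. The other copy of miR-125b, at chr9:41581940-41581961, shares its neighbourhood with miR-100, at chr9:41531437-41531458, and a let-7a gene. These 2 lie within the span of the long non-coding RNA Mir100hg. MiR-99b, at chr17:17830194-17830215, and miR-125a, at chr17:17830817-17830840, flank let-7e within the span of Spaca6. All of these are on the plus strand. The 2 genes of miR-125b, the other at chr16:77646279-77646300, give the same mature sequence, so the probe cannot separate them.

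The local background of the Cy3 channel was high, with a median of 4650 scanner units with BMP7 and 3756 with vehicle. In 15 of 16 printing blocks it was higher on the BMP7 array, by block from no difference (-0.013%) to 51.1% higher. A spot passed when it exceeded its own background by 2 standard deviations of the backgrounds over the array, 948 units with BMP7 and 1152 with vehicle. Detection took 2 passing spots out of 4. By this rule 64 of the 255 mouse miRNAs (25.1%) were detected on at least 1 array and 13.3% on both. Of the 66 probes whose name matched no mouse gene, 12.1% were detected on at least 1 array. All 7 miRNAs of a mesenchymal list were detected on at least 1 array, among them miR-199a and miR-214, and 6 on both. MiR-143 was detected on the vehicle array only. Of 27 probes from lists for blood, neurons, muscle, epithelium, liver and endothelium 3 were detected on at least 1 array, namely miR-223, miR-141 and miR-192. Only miR-223 was detected on both. The background-subtracted brightness summed over the mesenchymal list was 35199 with BMP7 and 26325 with vehicle, and over the 27 probes of the other lists pooled it was below 0 on both arrays. Within the mesenchymal list miR-145 and miR-143 were lower with BMP7, at 2707 and 595 units against 5713 and 1101, and the rest were higher.

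Of the family, miR-99a, miR-99b and miR-125b were detected on both arrays, miR-125a on the vehicle array only and miR-100 on neither. The 3 members miR-99a, miR-99b and miR-125a were dimmer with BMP7 after background correction and quantile normalization, and miR-125b was at nearly the same level on both arrays. None of the 4 detected members reached a 2-fold change, beside 12.5% of the 64 detected miRNAs at 2-fold in either direction (4.69% higher and 7.81% lower), and none reached 1.5-fold, beside 42.2%. In an array of total RNA from a culture, fewer cells that make a miRNA and less of it in each cell cannot be told apart.

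The miR-99a probe was well above its surroundings on both arrays. Its 4 spots, after subtraction of the local background, stood at 2218, 1578, 1993 and 3527 units with BMP7 and at 3873, 4233, 3696 and 3347 with vehicle. Spot 4 of the BMP7 array overlapped the vehicle spots, and the remaining 3 BMP7 spots lay below all of them. The normalized log2 level was 11.96 ± 0.26 (SD over 4 spots) with BMP7 and 12.30 ± 0.09 with vehicle, a log2 change of -0.34 ± 0.14 (SE), which is 1.27-fold lower. Without spot 4 of the BMP7 array it was -0.46.

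MiR-99b, whose gene is beside those of let-7e and miR-125a, was detected on both arrays. The subtracted spots stood at 985, 837, 1145 and 606 units with BMP7, where 2 of 4 passed the detection rule, and at 2404, 2445, 1945 and 1568 with vehicle, where all 4 passed. The 2 sets of subtracted spots did not overlap, with BMP7 the lower, as was so for 39.1% of the 64 detected miRNAs. The subtracted mean was 893 ± 229 (SD, n = 4 spots) with BMP7 and 2090 ± 416 with vehicle, 2.34-fold lower. On the normalized scale the change was smaller, at -0.30 ± 0.12 on the log2 scale, and the normalized spots overlapped.

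The background around miR-99b differed between the arrays by more than the spots did. Before subtraction its spots averaged 5396.5 units with BMP7 and 5032 with vehicle, and the local background averaged 4503 and 2942, 53.1% higher with BMP7. For miR-99a the background was 25.3% higher with BMP7, and the spots averaged 6850 with BMP7 and 7396.5 with vehicle before subtraction. The part of the background and of the laser power in these differences was not tested.

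MiR-100, which differs from miR-99a by a single base, was not detected with BMP7 or with vehicle, so its values are given without a fold. Its subtracted spots were at 105, -353, 390 and 442 units with BMP7, none of which passed. With vehicle they were at 2306, 1011, -188 and -263, of which spot 1 passed. Spots 1 and 2 of the vehicle array had local backgrounds of 4308 and 4104 units, and spots 3 and 4, printed at another place in the same block, had 5694 and 6110. The unsubtracted spots, in contrast, did not overlap: they lay between 4877 and 5067 units with BMP7 and between 5115 and 6614 with vehicle. The share of all miRNAs with unsubtracted spots apart was not counted, so no difference of miR-100 is read from this. Undetected probes could also be apart before subtraction: those of miR-10a and miR-10b were, with BMP7 the higher.

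**Figure D1:**
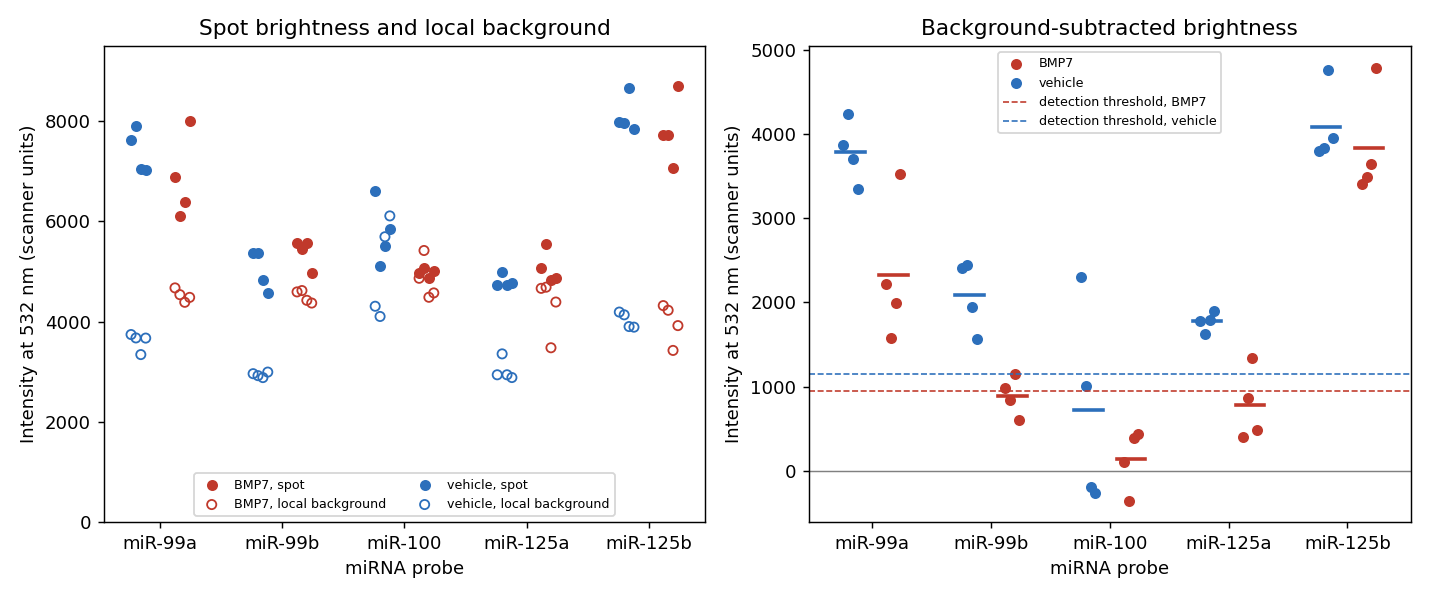
The left panel plots the Cy3 brightness of the 4 spots of each member (filled) and the local background of each spot (open) in scanner units, and the right panel the brightness after subtraction, with bars for the mean of 4 spots and dashed lines for the detection threshold of each array. With BMP7 the backgrounds of miR-99b and miR-125a averaged 4503 and 4306 units against 2942 and 3032 with vehicle, while those of miR-125b averaged 3975 and 4031.

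MiR-125a was detected on the vehicle array only. The subtracted spots stood at 406, 867, 1343 and 487 units with BMP7, where 1 passed, and at 1783, 1628, 1796 and 1895 with vehicle. Here too the subtracted spots were apart, with BMP7 the lower. The subtracted mean was 776 ± 428 (SD, n = 4 spots) with BMP7 and 1775 ± 110 with vehicle, 2.29-fold lower, as a ratio whose BMP7 side was not well above background. On the normalized scale the change was -0.27 ± 0.14 and the spots overlapped. Setting the vehicle mean against the higher of the probe's own BMP7 value and the lowest value detected on the BMP7 array, the rule for a miRNA detected on a single array, gave at least 1.21-fold lower. That is the fitted fold itself, in this setting alone, and covers neither its SE nor other processing: with no background correction the change was -0.03.

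As for miR-99b, the unsubtracted spots of miR-125a were not dimmer with BMP7: they averaged 5082 units, against 4807 with vehicle. These units were not scaled, and the BMP7 array was scanned at the higher laser power. The local background was 42.0% higher with BMP7, at 4306 against 3032. The printing block of miR-125a, which also holds let-7a, let-7c and let-7e, had the largest percent difference in median background of the 16 blocks, 51.1% higher with BMP7. The 21 other probes of that block had a median log2 change of -0.74, lower than that of miR-125a. The 2 alternatives that use the block, both chosen after seeing the data, gave opposite directions for miR-125a. When each spot was centred on the median of its block, miR-125a was at 0.37, with every BMP7 spot above the vehicle spots. When the median background of the block was subtracted in place of each spot's own, it was at -0.51, with every BMP7 spot below them. In the blocks of miR-99a and miR-99b the other probes had medians of -0.03 and -0.10, and block centring left these members at -0.27 and -0.26, with overlapping spots.

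MiR-125b was the brightest member probe on both arrays. The subtracted spots stood at 3401, 3492, 3641 and 4786 units with BMP7 and at 3796, 3835, 4755 and 3956 with vehicle, and the arrays overlapped. The subtracted mean was 3830 ± 645 (SD, n = 4 spots) with BMP7 and 4085 ± 451 with vehicle. The log2 change was 0.06 ± 0.13, smaller than its standard error, and -0.06 without spot 4 of the BMP7 array. The local background of this probe was 1.4% lower with BMP7 (percent change -1.40), at 3975 against 4031 units. In the reported setting this was the smallest change of the detected members, but with no background correction it was at -0.11, farther from 0 than miR-99b and miR-125a.

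In order of normalized probe brightness on each array, miR-125b came first, followed by miR-99a, miR-99b, miR-125a and miR-100. Probes bind with different strengths, so this is an order of brightness and not of amounts. Only miR-99a and miR-99b were apart in all their spots on either array; the spots of the other neighbours in the order overlapped. The detected miRNAs nearest to each member in both levels, by the distance between their 2 log2 levels, were miR-26a (0.23) and miR-145 (0.38) for miR-99a. For miR-99b they were miR-298 (0.08) and miR-125a (0.16), for miR-125a miR-298 (0.14) and miR-103 (0.15), and for miR-125b miR-24 (0.20) and miR-21 (0.27).

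Over the 4 detected members the median log2 change was -0.29, beside -0.02 over the 64 detected miRNAs. Of the 4 detected members 3 had a fitted value below 0, beside 51.6% of the 64. MiR-125a was counted only through the vehicle array, where it was the higher, so its direction is not independent of the detection rule. Over the 3 members detected on both arrays the median was -0.30, with miR-99a and miR-99b below 0 and miR-125b above. In the reported setting the normalized spots of all 4 detected members overlapped between the arrays, whereas 23.4% of the 64 had all BMP7 spots below and 18.8% all BMP7 spots above those of vehicle. This depended on the scaling and the background: all BMP7 spots of miR-99b lay below with cyclic loess, with no normalization between arrays and with the block median background, and those of miR-125a with the last of these. From the lowest change, the members held ranks 20 (miR-99a), 23 (miR-99b), 26 (miR-125a) and 37 (miR-125b) of 64.

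**Figure D2:**
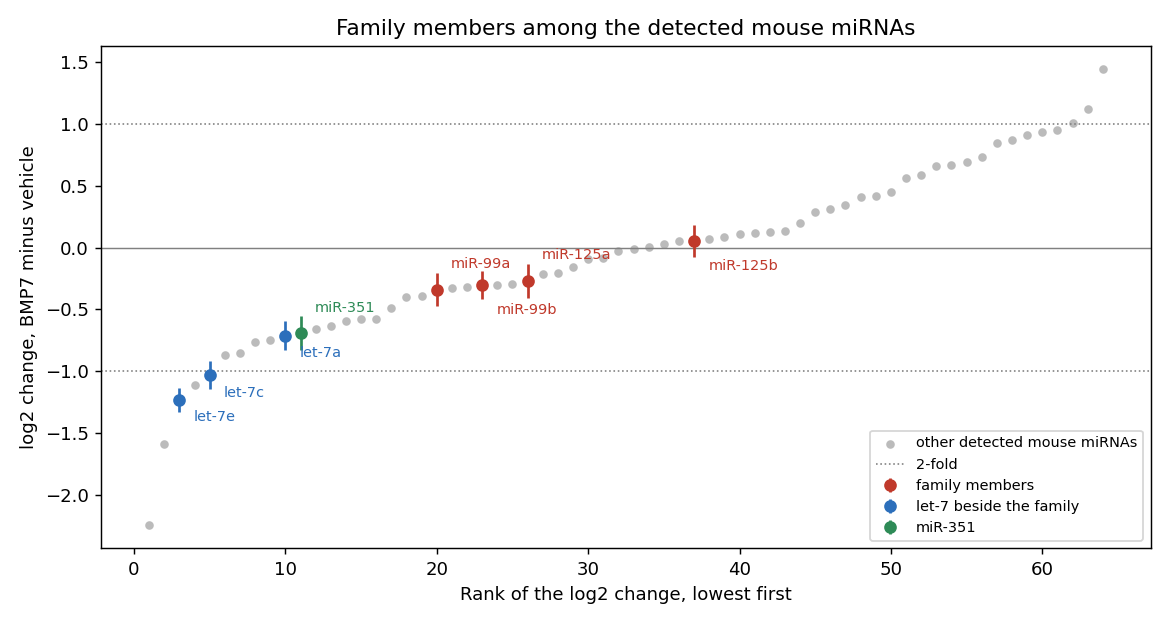
The log2 change (BMP7 minus vehicle) of the 64 detected mouse miRNAs is plotted by rank, with the family, the let-7 members beside it and miR-351 in colour, bars for the SE over 4 spots per array and dotted lines at 2-fold. The family lies between -0.34 and 0.06, above let-7e at -1.23, let-7c at -1.03, let-7a at -0.71 and miR-351 at -0.69.

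The let-7 miRNAs, which accumulate as cells differentiate, come from genes beside those of the family, although let-7a and let-7c are also made from genes elsewhere. In all 3 the normalized spots were apart, lower with BMP7, as in 23.4% of the 64 detected miRNAs. All 3 probes lie in the printing block of miR-125a, and the part of the block in their changes was not tested. Let-7e, which lies between miR-99b and miR-125a on chromosome 17, was at -1.23 ± 0.10, against -0.30 for miR-99b and -0.27 for miR-125a. Let-7c, beside miR-99a and a miR-125b gene on chromosome 16, was at -1.03 ± 0.11, and let-7a, beside miR-100 and the other miR-125b gene on chromosome 9, was at -0.71 ± 0.12. With each spot centred on its block, let-7e was at -0.65, let-7c at -0.42 and let-7a at -0.24. The spots of let-7a then overlapped. In the second channel of the scan let-7e was at -0.30 and let-7a at -0.07, with overlapping spots. Let-7c was at -0.20 there with its spots apart. The authors' deposited table listed folds (BMP7 over vehicle) of 1.12 for let-7a and 0.98 for let-7c, beside a median of 1.46. No test of the difference between neighbouring genes could be made with 1 array per group.

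MiR-351, a miRNA with the seed of miR-125, is shown to compare its remaining bases with those of the family.
miR-351-5p: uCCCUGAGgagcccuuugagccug
Lined up from the 5′ end without gaps it differs from miR-125a at 14 of 24 positions, all outside the seed, and the least number of single-base edits between them is 7. It was detected on both arrays at -0.69 ± 0.14, with every BMP7 spot below the vehicle spots, as for 23.4% of the 64 detected miRNAs. Its subtracted spots were between 2381 and 4219 units with BMP7 and between 7278 and 7736 with vehicle. The unsubtracted spots were apart too, at 6904 to 9088 units against 10464 to 11060, a trait whose share over all miRNAs was not counted. Unlike miR-125a and miR-99b, it was therefore dimmer with BMP7 in the Cy3 channel before and after subtraction, and with block centring it was at -0.75. In the second channel of the scan miR-351 was at 0.20, with overlapping spots. The authors' deposited table listed miR-351 as 1.06-fold lower.

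MiR-10a and miR-10b, relatives of miR-99 and miR-100 whose genes lie in Hox clusters, were not detected on either array. MiR-10a is 3 single-base edits from miR-100, yet has another seed, ACCCUGU. Its spots were dimmer than their own background on both arrays, with a subtracted mean of -1145 units with BMP7 and -738 with vehicle, and those of miR-10b averaged -701 and -522.

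The size of the members' changes moved with the handling of the background, as the plot by processing shows. With no background correction miR-99b was at -0.0018 and miR-125a at -0.03, while miR-99a was at -0.19 and miR-125b at -0.11. With plain subtraction in place of normexp they were at -0.62 for miR-99b, -0.68 for miR-125a, -0.52 for miR-99a and 0.07 for miR-125b, beside a median of -0.38 over the detected miRNAs. Taken as ratios of mean subtracted brightness with no scaling, miR-99b and miR-125a were past 2-fold, at -1.23 and -1.19. By that measure 33.9% of the 56 detected miRNAs with both means above 0 were at least 2-fold lower, 67.9% were lower by any amount, and their median was -0.73. The 192 Cy3 control spots averaged 26705 units with BMP7 and 31404 with vehicle, a log2 difference of -0.23.

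**Figure D3:**
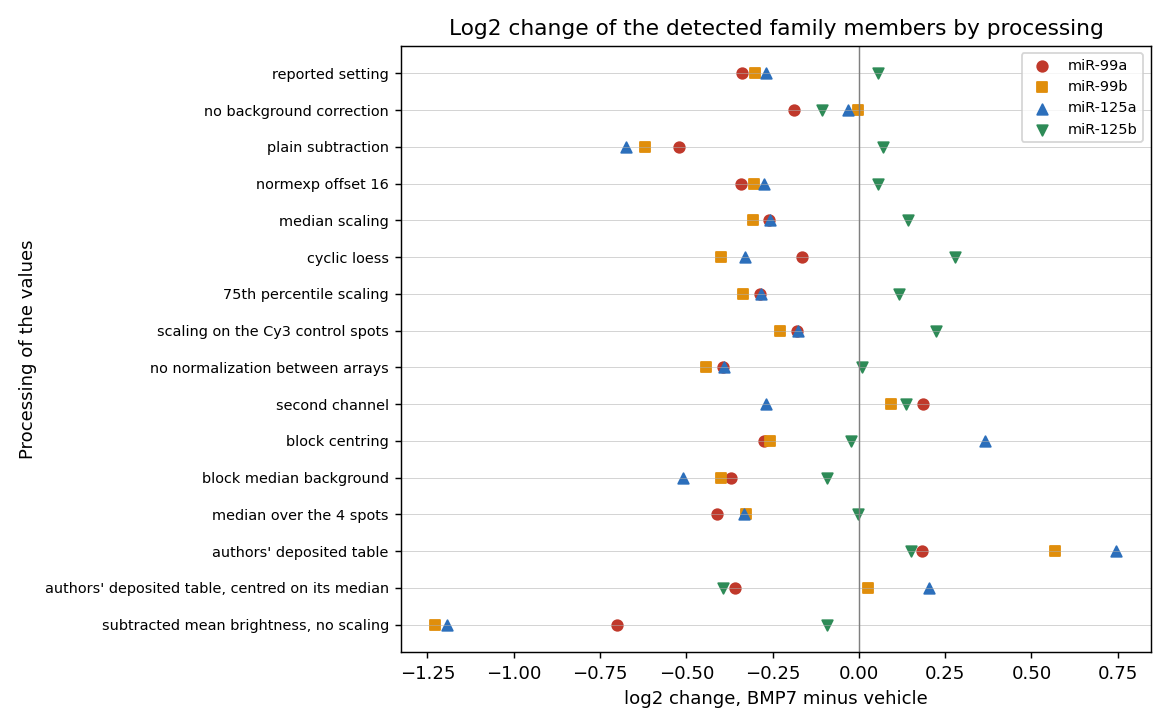
Each row is a way of processing the values, the horizontal axis is the log2 change (BMP7 minus vehicle), and the symbols are the 4 detected members. MiR-99a, miR-99b and miR-125a lie below 0 in the reported setting (-0.34, -0.30 and -0.27) and above 0 in the authors' deposited table (0.18, 0.57 and 0.75).

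The authors' deposited table gave the opposite direction for miR-99a, miR-99b and miR-125a, and the same direction for miR-125b. It lists the ratio of the brightness in the Cy3 channel to that in the second channel of the scan, with no background subtraction, divided by the same ratio for control spots named Control_1. The labels name Cy3 alone, and what gave the signal of the second channel is unknown here. In the authors' deposited table miR-125a was at 0.072 with vehicle and 0.121 with BMP7, 1.68-fold higher, and miR-99b was 1.48-fold higher. Smaller folds were listed in the authors' deposited table for miR-100 (1.17), miR-99a (1.14) and miR-125b (1.11). All 5 members were thus listed as higher with BMP7, beside 92.6% of the 339 array probes of that table, whose median fold was 1.46. Against that median, miR-125a (0.20 on the log2 scale) and miR-99b (0.03) were above it and miR-100 (-0.31), miR-99a (-0.36) and miR-125b (-0.39) below it in the authors' deposited table. None of the 5 reached 2-fold there, beside 7.96% of the 339.

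**Figure D4:**
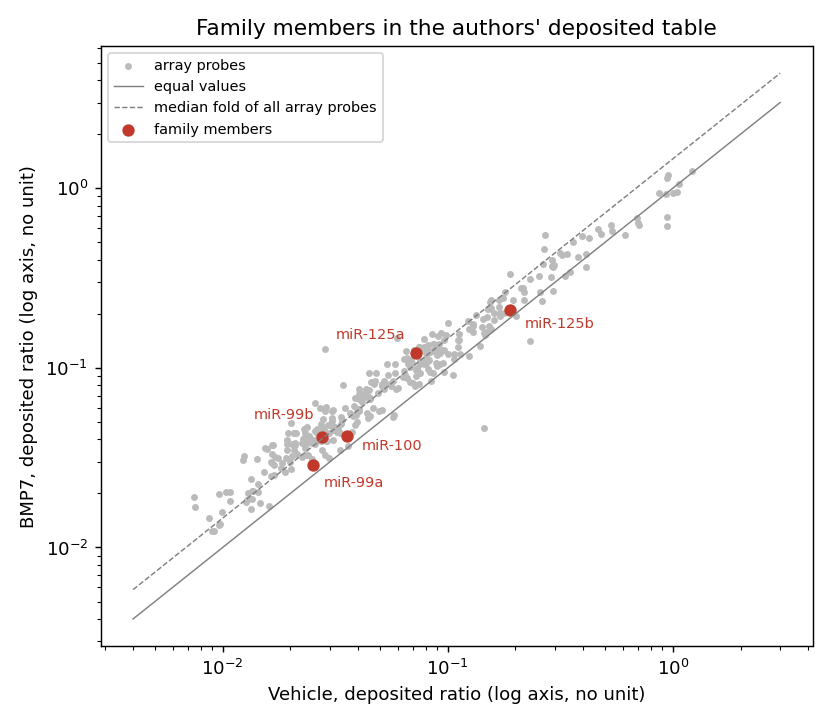
The authors' deposited ratio with BMP7 is plotted against that with vehicle for the 339 array probes (log axes, no unit), with the 5 members in red, a solid line at equal values and a dashed line at the median fold of 1.46. All 5 members lie above the solid line, and miR-99a, miR-100 and miR-125b lie below the dashed line.

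The parts of this ratio show where the members' values came from. Before the division by Control_1, the ratio of Cy3 to second-channel brightness for miR-99a was 0.504 with BMP7 and 0.519 with vehicle, a log2 change of -0.04. It was at -0.07 for miR-125b and 0.01 for miR-100. The Control_1 ratio was 17.5 with BMP7 and 20.5 with vehicle, a change of -0.22, and dividing by it raised every probe by that amount. For miR-99b and miR-125a the change before this division was 0.34 and 0.52. Both were brighter in the Cy3 channel without subtraction and dimmer in the second channel with BMP7: miR-125a averaged 2404 ± 73 (SD, n = 4 spots) there with BMP7 and 3290 ± 387 with vehicle, and miR-99b averaged 7534 ± 501 and 8952 ± 1284.

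The authors' deposited table also holds miR-125a-5p among the 16 miRNAs of a customized panel. Neither the assay of that panel nor its scale is stated in the labels or the table. MiR-125a-5p was listed at 4.05e-07 with BMP7 and 9.3e-07 with vehicle, 2.30-fold lower in the authors' deposited table, as 1 value per group with no error. In that panel 6 of the 16 (37.5%) were at least 2-fold lower. Its direction was that of the background-subtracted array spots of miR-125a, and opposite to the array entry of the same table, where miR-125a was 1.68-fold higher. Let-7e, the gene neighbour of miR-125a, was in the panel too, and the authors' deposited table gave it a fold of 1.11 (BMP7 over vehicle). That direction was opposite to the background-corrected array, where let-7e was at -1.23 with its spots apart. In the reported setting the panel and the background-corrected array thus had the same direction for miR-125a and opposite directions for let-7e. With block centring miR-125a was at 0.37, opposite to the panel. Of the 16 panel miRNAs 9 were lower with BMP7. By subtracted mean brightness so were 67.9% of the 56 detected miRNAs with both means above 0. Little can therefore be read from the shared direction.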

How the data were processed

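Total RNA of 2 samples, 1 per group, was measured on 1 array each. Per the file headers, the deposited intensity values are GenePix mean spot brightness at 635 and 532 nm with no normalization and no background subtraction. Laser power at 532 nm was 3.17 for BMP7 and 2.45 for vehicle. The deposited sum and ratio of background-subtracted means, used as a score, were solved for the local background of 1727 of 1728 spots on each array. The authors' deposited ratio values were rebuilt from the brightness within 0.1% for 336 and 337 of 339 probes, and for all 5 members. The log2 fold changes were computed here from the deposited values. Intensities at 532 nm (Cy3) went through normexp with an offset of 50 (limma 3.58.1, R 4.3.3), control spots were removed, arrays were quantile normalized and log2 values of 4 spots averaged (Python 3.11.15, numpy 2.4.6, pandas 2.3.3). Of 344 probes with a species prefix, 278 matched a mouse gene by name (RefSeq, GRCm38.p6) and 255 were kept. The background correction, normalization and averaging were run on simulated data, but the solving of the local background was not. The planted changes were larger than those of the family and lay on probes whose mean subtracted brightness with vehicle was above the detection threshold. The simulation therefore does not cover changes of the family's size. Named were the members, let-7 neighbours, miR-351, miR-10a, miR-10b and the 2 nearest detected miRNAs per detected member; members and lists were chosen with earlier results of these data known.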

Additional observations from a re-analysis of the deposited data

Results flagged for a closer look

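The second channel, whose content the labels do not state and which the comparison of the groups did not use, held signal for the family: all 5 members were brighter there, in every spot on both arrays, than the brightest Control_1 spot (412 units with BMP7 and 319 with vehicle). The share of all probes above that spot was not counted, so this is not shown to be particular to the family. MiR-10a and miR-10b, not detected in the Cy3 channel, averaged 2920.5 and 5392 units there with BMP7 and 3014 and 5633.5 with vehicle. Other probes were dim there, such as miR-384 at 239 and 193 units. MiR-99a averaged 13550.5 ± 590 units (SD, n = 4 spots) with BMP7 and 14301 ± 829 with vehicle in that channel, and miR-125b, the brightest member in the Cy3 channel, averaged 2111 ± 125 and 2090 ± 151.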

How the results depend on the processing

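No paired analysis was possible because each group has 1 array. The low signal over background limits every change of the family, and the cause of the shifts was not tested. The median of the detected members, -0.29, was -0.57 with plain subtraction, -0.95 as ratios of subtracted means, 0.11 in the second channel and 0.38 in the authors' deposited table. It lay below 0 in 24 of 26 alternatives. These include the runs with each spot left out, which stayed between -0.33 and -0.22. Without those runs it lay below 0 in 16 of 18, among them the member at its bound, which repeated the reported value. All alternatives use the same arrays and the median includes miR-125a, so the count is no measure of replication. No detected member reached 2-fold except as ratios of subtracted means, where 2 did. Signs turned in the second channel for miR-99a (0.19) and miR-99b (0.094), in the authors' deposited table for miR-99a (0.18), miR-99b (0.57) and miR-125a (0.75), with block centring for miR-125a (0.37), and in the authors' deposited table centred on its median for miR-99b (0.025), miR-125a (0.20) and miR-125b (-0.39). MiR-125b, at 0.06, was below 0 in 7 of 23 alternatives, among them no background correction (-0.11), block median background (-0.09), ratios of subtracted means (-0.09), block centring (-0.02) and the median over spots (-0.0029). Over the 64 detected miRNAs, 8 were past 2-fold, against 33 with plain subtraction, 5 with block centring and 0 with no background correction or in the second channel, and their median was -0.12 with cyclic loess, -0.18 with no normalization and -0.13 with block centring. Block centring, block median background, unscaled ratios of subtracted means, centring of the authors' deposited table and the member at its bound were chosen after seeing the data. No member has a second probe, so that alternative was not run.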
